A study of Homo sapiens with 89 samples.

Results

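Nicotinic acetylcholine receptor subunits were followed in a study of MYCN and the nuclear RNA exosome in human neuroblastoma cell lines. The 9 genes are CHRNA1, CHRNA3, CHRNA5, CHRNA7, CHRNA9, CHRNB2, CHRNB4, CHRND and CHRNG, out of 57905 genes in each of the deposited count tables. They were chosen by symbol, and CHRNA1 was chosen because its level was much lower after EXOSC10 depletion. Its values in that comparison are therefore given as a description, without a test.

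Polyadenylated RNA was sequenced in 5 groups of 3 libraries. The EXOSC10-depleted group was IMR-32 with a doxycycline-inducible shRNA against EXOSC10, the nuclease subunit of the nuclear exosome, induced with 1 µg/ml doxycycline. Its control was IMR-32 without doxycycline, given ethanol by the column names. IMR-32 is a neuroblastoma line with amplified MYCN. In the other line, SHEP, which lacks MYCN amplification, doxycycline at 1 µg/ml induced wild type MYCN in one group and MYCN 3A, a mutant deficient in RNA binding, in another. The SHEP cells of the no MYCN group received no doxycycline. In comparisons with cells given no doxycycline, the agent differs together with what it induces, and their effects cannot be told apart. The wild type MYCN and MYCN 3A groups received the same dose. The labels name no separate cultures, and a p here reflects only how far these libraries spread, which may be technical in origin.

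The receptor is a channel of 5 subunits that opens when acetylcholine binds between an alpha subunit and its neighbour. Skeletal muscle uses alpha1 with beta1, delta and either gamma before birth or epsilon after it. Autonomic neurons, related to the sympathetic lineage from which neuroblastoma arises, use mainly alpha3 with beta4, often with the accessory subunit alpha5. In the brain alpha4 with beta2 and alpha7 alone are the common forms, and alpha9 works with alpha10 in hair cells of the inner ear.

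Several of the genes lie side by side. In hg19, the build of the tables, CHRNA5 (chr15:78857862-78887611, plus strand), CHRNA3 (chr15:78885394-78913637, minus strand) and CHRNB4 (chr15:78916461-79020096, minus strand) form a cluster. CHRNA3 and CHRNB4 are separated by 2824 bases on one strand. The CHRNA5 and CHRNA3 genes face each other and overlap by 2218 bases, of which 198 are exonic in both. CHRND (chr2:233390703-233401377, plus strand) and CHRNG (chr2:233404437-233411113, plus strand) lie 3060 bases apart. CHRNA1 (chr2:175612320-175629200, minus strand) lies elsewhere on chromosome 2. CHRNA7 is at chr15:32322691-32464722 on the plus strand, far from the cluster. CHRNA9 is at chr4:40337346-40357234 and CHRNB2 at chr1:154540257-154552502, both on the plus strand.

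The bases before the start of transcription were read from RefSeq promoters of build GRCh38.p14, in which 7 of the 9 genes had an entry and CHRNA5 and CHRNG had none. The 250 bases before the start are printed 5′ to 3′ for CHRNA1, for CHRNA3, CHRNB4 and CHRND, which were called lower after depletion, and for CHRNA7, which was called higher. Capitals mark CANNTG, the E-box word that MYC and other basic helix-loop-helix factors can bind. The CHRNA1 window is chr2:174764473-174764722 (minus strand), that of CHRNA3 chr15:78620997-78621246 (minus), that of CHRNB4 chr15:78641211-78641460 (minus), that of CHRND chr2:232525910-232526159 (plus) and that of CHRNA7 chr15:32030233-32030482 (plus).
CHRNA1: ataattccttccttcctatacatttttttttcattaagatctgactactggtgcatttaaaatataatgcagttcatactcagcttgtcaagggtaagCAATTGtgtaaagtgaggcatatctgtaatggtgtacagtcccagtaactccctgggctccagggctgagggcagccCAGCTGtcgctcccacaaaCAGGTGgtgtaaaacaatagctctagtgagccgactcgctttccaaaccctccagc
CHRNA3: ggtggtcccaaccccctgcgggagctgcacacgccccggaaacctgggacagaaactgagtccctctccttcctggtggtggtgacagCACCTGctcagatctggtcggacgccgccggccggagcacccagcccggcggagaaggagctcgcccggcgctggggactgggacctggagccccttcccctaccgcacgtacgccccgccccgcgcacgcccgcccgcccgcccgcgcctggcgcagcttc
CHRNB4: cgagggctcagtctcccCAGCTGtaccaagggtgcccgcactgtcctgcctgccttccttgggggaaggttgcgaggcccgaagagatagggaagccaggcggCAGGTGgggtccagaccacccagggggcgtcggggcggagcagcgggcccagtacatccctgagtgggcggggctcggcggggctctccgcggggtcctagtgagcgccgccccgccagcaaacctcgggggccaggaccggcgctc
CHRND: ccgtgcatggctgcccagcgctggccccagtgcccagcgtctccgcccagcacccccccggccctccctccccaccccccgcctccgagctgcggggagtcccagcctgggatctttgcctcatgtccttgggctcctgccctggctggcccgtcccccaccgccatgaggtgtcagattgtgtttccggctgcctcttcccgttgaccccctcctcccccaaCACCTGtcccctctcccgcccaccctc
CHRNA7: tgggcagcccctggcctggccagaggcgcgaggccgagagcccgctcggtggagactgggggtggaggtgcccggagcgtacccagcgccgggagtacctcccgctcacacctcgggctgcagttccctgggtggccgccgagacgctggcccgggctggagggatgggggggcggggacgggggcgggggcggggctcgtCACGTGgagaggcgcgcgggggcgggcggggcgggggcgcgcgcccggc

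These windows differ in base composition. GC content was 44.8% in CHRNA1, against 73.6% in CHRNA3, 72.4% in CHRNB4, 71.6% in CHRND and 80.4% in CHRNA7, and the median over all 35116 RefSeq windows of that length was 58%. CHRNA1 held 3 E-box words, which were CAATTG beginning 152 bases before the start, CAGCTG at 75 bases and CAGGTG at 56 bases. CHRNB4 held CAGCTG beginning 233 bases before its start and CAGGTG at 147 bases. CHRNA3 and CHRND held CACCTG, 162 and 27 bases before their starts. CHRNA7 held CACGTG, the form that MYC proteins prefer, 49 bases before the first of its RefSeq starts and 81 before the other. At least 1 CANNTG was present in 61.8% of all windows, CACGTG in 6.34% and CAGCTG in 14%, on both strands. Both of these 6-letter words are forms of CANNTG. The SP1 word GGGCGG, searched on both strands, occurred 4 times in CHRNA3, 3 times in CHRNB4, 2 times in CHRND, 6 times in CHRNA7 and 0 times in CHRNA1, and 42.6% of all windows held it. CHRNA9 (58% GC) held CAACTG 143 bases before its start, and CHRNB2 (60.4% GC) held 0 E-box words in its window. A matching word is a description of the window and does not show a bound site.

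All 9 genes passed the filter on low counts in IMR-32 and only CHRNA5 did in SHEP. The libraries held 16394148 to 26193478 counts in IMR-32 and 11638859 to 15353505 in SHEP, and 17103 and 14923 genes of the tables passed that filter. EXOSC10, the depleted gene, had 49, 46.7 and 46.1 CPM (counts relative to the scaled library size) in shEXOSC10 libraries, against 74.6, 64 and 67.1 CPM in controls. It fell by 0.54 on the log2 scale (edgeR quasi-likelihood test, SE 0.08, Benjamini-Hochberg adjusted p = 2.3e-08). MYCN fell as well, to 599 ± 5.47 CPM in shEXOSC10 libraries, against 1097 ± 15.3 CPM in controls (SD, n = 3 each; log2 fold change -0.87, SE 0.04, adjusted p = 7.5e-30). In SHEP the MYCN row held between 0 and 10 counts in every library, including those with an induced form, so it does not check the SHEP labels. IMR-32 carried adrenergic markers such as PHOX2A, HAND2 and GATA3, and their list of 8 summed to 1466 to 1515 CPM after depletion and 2343 to 2484 CPM in controls. SHEP carried the mesenchymal list at 5951 to 7293 CPM and the adrenergic list at 70 to 87.7 CPM. HAND2 made up most of that adrenergic sum, at 71.6 CPM with wild type MYCN, 71.4 CPM with MYCN 3A and 60.1 CPM with no MYCN. GATA3 and ISL1 were also detected in SHEP. DBH and TH had 0 counts in all 3 SHEP groups, and TH had only 0.822 CPM in IMR-32 controls.

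IMR-32 expressed receptor genes of the ganglionic, brain and muscle types together. Levels of different genes are compared per kilobase of exon. After EXOSC10 depletion the order of these levels was CHRNA3 (71.5 ± 0.884 CPM per kb, SD, n = 3), CHRNB2 (58.5 ± 2.39), CHRNA5 (16 ± 1.5), CHRNB4 (8.89 ± 0.601), CHRNA1 (7.85 ± 0.664), CHRND (5.81 ± 0.883), CHRNA9 (3.55 ± 0.257), CHRNA7 (1.68 ± 0.161) and CHRNG (1.14 ± 0.142). In control cells the order was CHRNA3 (118 ± 1.26 CPM per kb), CHRNB2 (57.7 ± 2.82), CHRNA1 (46.4 ± 0.762), CHRNA5 (18.1 ± 0.393), CHRNB4 (15.2 ± 1.41), CHRND (7.67 ± 0.291), CHRNA9 (4.18 ± 0.196), CHRNG (1.58 ± 0.332) and CHRNA7 (1.23 ± 0.0809). Neighbours in the order overlapped in range at CHRNB4 and CHRNA1 after depletion, and at CHRNG and CHRNA7 in controls.

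**Figure D1:**
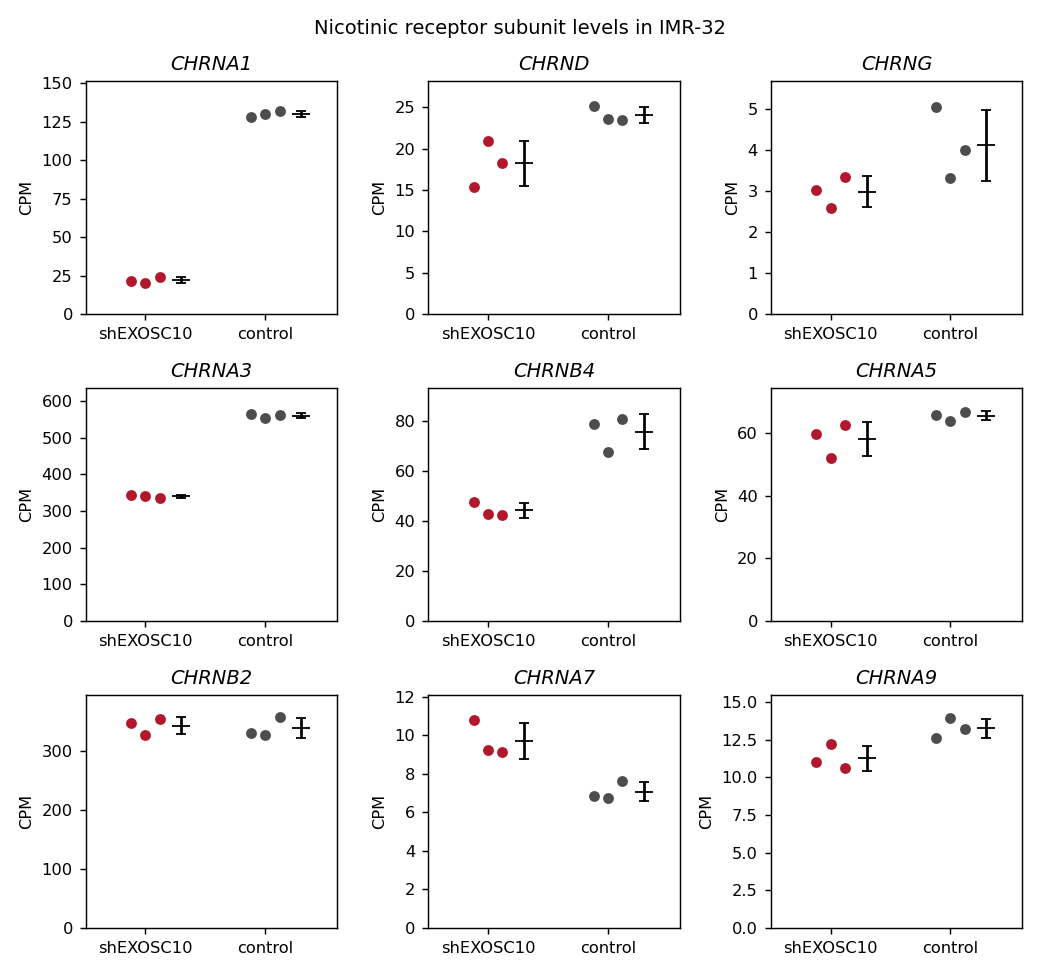
CPM of the 9 subunit genes in each IMR-32 library (points), with the mean and SD of 3 libraries (bars), for shEXOSC10 on the left and control on the right of each panel. CHRNA1 libraries lie at 20.3 to 24 CPM in shEXOSC10 and 128 to 132 CPM in controls, while the CHRNB2 libraries of both groups cover the same range.

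The muscle-type genes were led by CHRNA1, which encodes the acetylcholine-binding alpha subunit. CHRNA1 had 21.8, 20.3 and 24 CPM in shEXOSC10 libraries, against 128, 130 and 132 CPM in controls, from 444, 336 and 633 counts in the depleted libraries and 2632, 2659 and 2777 in the controls. The groups were far apart, with little spread inside either. The mean after depletion was 16.9% of the control mean (log2 fold change -2.55, SE 0.07). Of the 17103 genes tested, 12 had a lower log2 fold change. Across the 11 alternative settings, among them each library left out, the value for CHRNA1 ranged from -2.63 to -2.50. In bulk RNA, fewer cells of a type and less RNA per cell cannot be told apart.

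CHRND, which encodes the delta subunit of the muscle receptor, fell. It had 15.4, 20.9 and 18.3 CPM in shEXOSC10 libraries, against 25.1, 23.6 and 23.4 CPM in controls. The ranges did not overlap, but the depleted libraries were spread more widely than the controls. The log2 fold change was -0.40 (edgeR, SE 0.11, adjusted p = 0.00416). Without shEXOSC10 replicate 1, the lowest library, it was -0.3 and the call was lost (adjusted p = 0.0695).

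CHRNG encodes the gamma subunit, which the fetal muscle receptor uses. It had 3.04, 2.6 and 3.34 CPM in shEXOSC10 libraries, against 5.05, 3.33 and 4 CPM in controls. The ranges overlapped, and the difference did not pass the test (log2 fold change -0.46, SE 0.26, 95% interval -0.96 to 0.05, adjusted p = 0.202). Per kilobase the level of CHRNA1 was 1.37 ± 0.259 times that of CHRND after depletion and 6.05 ± 0.319 times in controls, and that of CHRND was 5.18 ± 1.35 times that of CHRNG after depletion and 4.98 ± 0.885 times in controls (SD, n = 3 each).

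Of 9 skeletal muscle markers, 4 had a mean of at least 1 CPM in IMR-32, both after depletion and in controls. MYOD1, MYF5 and MYF6, which define the muscle lineage, had 0 counts in all 6 IMR-32 libraries. MYOG, another myogenic factor, had 4.95 ± 0.932 CPM in shEXOSC10 libraries and 4.79 ± 1.04 CPM in controls (SD, n = 3 each; edgeR log2 fold change 0.06, SE 0.22, adjusted p = 0.892). The 9 muscle markers summed to 27.8 to 31.9 CPM after depletion and 24.8 to 29.1 CPM in controls, with DES also at 0 after depletion. Of the 4 tested, 1 rose and 1 fell, where 27.1% of all tested genes were called. MYH3, the highest of them, rose to 17.4 ± 1.62 CPM after depletion, against 12.3 ± 2.21 CPM in controls (0.51, adjusted p = 0.00205). CKM fell to 4.64 ± 0.814 CPM after depletion, against 7.78 ± 0.208 CPM in controls (-0.74, adjusted p = 0.00245).

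The ganglionic genes CHRNA3 and CHRNB4 fell together. CHRNA3, the alpha subunit of the autonomic receptor and the most abundant of the 9 transcripts, had 344, 342 and 336 CPM in shEXOSC10 libraries, against 566, 554 and 562 CPM in controls. The groups were well separated and the libraries of each nearly equal. The log2 fold change was -0.72 (edgeR, SE 0.04, adjusted p = 2.4e-23), a level 39.2% below that of controls.

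CHRNB4, the beta partner of alpha3, had 47.7, 42.6 and 42.4 CPM in shEXOSC10 libraries, against 78.6, 67.5 and 80.5 CPM in controls. Every depleted library lay below every control, although control replicate 2 was lower than the other controls. The log2 fold change was -0.77 (edgeR, SE 0.08, adjusted p = 2.8e-13). The level of CHRNA3 per kilobase was 8.07 ± 0.459 times that of CHRNB4 after depletion and 7.8 ± 0.681 times in controls, with overlapping ranges.

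CHRNA5 encodes an accessory subunit that joins alpha3 and beta4 but binds no acetylcholine itself. It lies in the same cluster and had 59.7, 51.9 and 62.4 CPM in shEXOSC10 libraries, against 65.6, 63.9 and 66.7 CPM in controls. The ranges did not overlap but came close, and the depleted libraries were more spread. The difference did not pass the test (log2 fold change -0.17, edgeR SE 0.07, adjusted p = 0.0826). It did pass without shEXOSC10 replicate 3 (-0.23, adjusted p = 0.0463), and without shEXOSC10 replicate 2 it was -0.1 (adjusted p = 0.42). CHRNA3 was 4.5 ± 0.466 times CHRNA5 per kilobase after depletion and 6.52 ± 0.1 times in controls.

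Among annotated genes next to the cluster, PSMA4, a proteasome subunit gene 16258 bases beyond CHRNA5, had 105 CPM in shEXOSC10 libraries and 113 CPM in controls and was not called (log2 fold change -0.12, edgeR adjusted p = 0.173). ADAMTS7, a metalloprotease gene 31449 bases beyond CHRNB4, had 165 CPM after depletion and 180 CPM in controls, again without a call (-0.13, adjusted p = 0.0688). GOLGA6GP, a pseudogene on the opposite strand whose span overlaps that of CHRNB4 and which shares 165 exonic bases with it, fell to 0.29 CPM in shEXOSC10 libraries, against 2.4 CPM in controls (-3.09, SE 0.53, adjusted p = 2.4e-06). One unnamed gene, ENSG00000261762 (chr15:78881465-78883618, minus strand), was singled out after its values were seen. It lies within CHRNA5 on the other strand, 1776 bases past the end of CHRNA3, and shares 832 exonic bases with CHRNA5. It had 25 CPM in shEXOSC10 libraries and 47 CPM in controls (log2 fold change -0.91, SE 0.09, adjusted p = 4.0e-13).

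Beside CHRNA1, CHN1, a chimaerin gene 34891 bases away on the same strand, fell by 0.31 on the log2 scale (edgeR adjusted p = 0.00139), and the pseudogene H3P6 on the other side was not called (-0.16, adjusted p = 0.271). CHRND and CHRNG are flanked by PRSS56 (-0.49, adjusted p = 0.517) and TIGD1 (-0.04, adjusted p = 0.816).

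The brain-type beta subunit gene CHRNB2 was not called. It had 347, 328 and 355 CPM in shEXOSC10 libraries, against 331, 328 and 358 CPM in controls. The groups covered the same range (log2 fold change 0.02, 95% interval -0.07 to 0.11, edgeR adjusted p = 0.81), and the sign turned when single libraries were left out (-0.01 to 0.06). ADAR, an RNA-editing enzyme gene 2036 bases away on one side, was not called either (0.01, adjusted p = 0.912), and UBE2Q1, a ubiquitin-conjugating enzyme gene 8753 bases away on the other, fell by 0.14 on the log2 scale (adjusted p = 0.0296). CHRNA4, the usual alpha partner of beta2, rose to 32.4 ± 3.42 CPM in shEXOSC10 libraries, against 26.3 ± 0.563 CPM in controls (SD, n = 3 each; log2 fold change 0.30, SE 0.10, adjusted p = 0.015). Without shEXOSC10 replicate 1 that call was lost (0.21, adjusted p = 0.181).

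CHRNA7 encodes the subunit of the homomeric receptor that binds alpha-bungarotoxin. It had 10.8, 9.25 and 9.11 CPM in shEXOSC10 libraries, against 6.85, 6.77 and 7.62 CPM in controls. The depleted libraries all lay above the controls (log2 fold change 0.46, edgeR SE 0.17, adjusted p = 0.0335). The call is fragile. It was lost without control replicate 1 (adjusted p = 0.0843) or 2 (0.107), and without shEXOSC10 replicate 1 (0.169) or 3 (0.0502), the values ranging from 0.37 to 0.51. It was also lost without the filter on low counts (0.0537). CHRFAM7A, a fusion gene that carries a near-identical copy of part of CHRNA7, had 4.77 ± 0.895 CPM after depletion and 3.97 ± 0.61 CPM in controls (0.26, SE 0.23, adjusted p = 0.453). How reads were shared between the 2 loci is not given in the sources used here, so both values are uncertain.

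CHRNA9 had 11, 12.2 and 10.6 CPM in shEXOSC10 libraries, against 12.6, 13.9 and 13.2 CPM in controls. The ranges did not overlap, but the difference did not pass the test (log2 fold change -0.24, edgeR SE 0.14, 95% interval -0.51 to 0.03, adjusted p = 0.21). CHRNA10, its partner in hair cells, rose to 4.97 ± 0.58 CPM in shEXOSC10 libraries, against 2.52 ± 0.381 CPM in controls (log2 fold change 0.98, SE 0.26, adjusted p = 0.00195).

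All 9 genes passed the filter in IMR-32. Apart from CHRNA1, 3 of 8 were called lower, 1 higher and 4 were not called, in a comparison in which 13.7% of the 17103 tested genes were called lower, 13.5% higher and 27.1% in all. The groups did not overlap for 6 of these 8, against 38.4% of all tested genes. The median log2 fold change of the 9 was -0.40, against 0.00 over all tested genes. The choice of CHRNA1 rested on this contrast, so nothing is read from these shares.

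**Figure D2:**
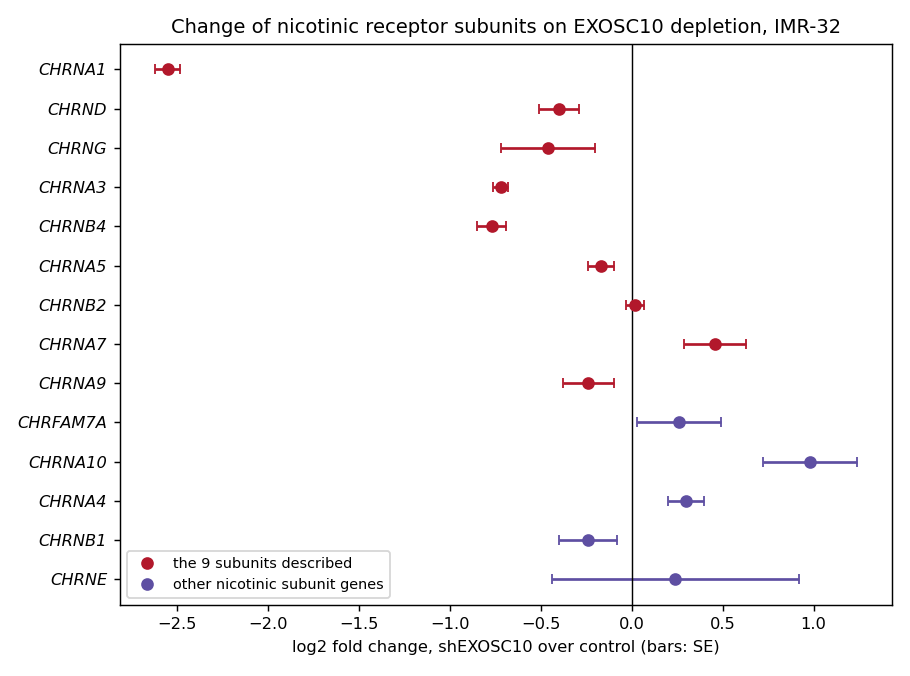
Log2 fold change of shEXOSC10 over control in IMR-32 with its SE (bars) for the 9 subunit genes (red) and 5 other nicotinic genes (violet). CHRNA1 lies at -2.55, CHRNA3 and CHRNB4 at -0.72 and -0.77, CHRNB2 at 0.02 and CHRNA10 at 0.98.

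As a share of the summed level per kilobase of the 9 genes, CHRNA1 made up 4.48 ± 0.305% after depletion and 17.2 ± 0.352% in controls. The share of CHRNB2 was 33.4 ± 0.711% in shEXOSC10 libraries and 21.4 ± 0.672% in controls. CHRNA3 stayed the largest, with 40.9 ± 1.12% after depletion and 43.6 ± 0.664% in controls. The sum itself was 175 ± 3.57 CPM per kb after depletion and 270 ± 5.47 CPM per kb in controls. Shares add to a fixed total, so a lower CHRNA1 raises the share of the others by construction.

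**Figure D3:**
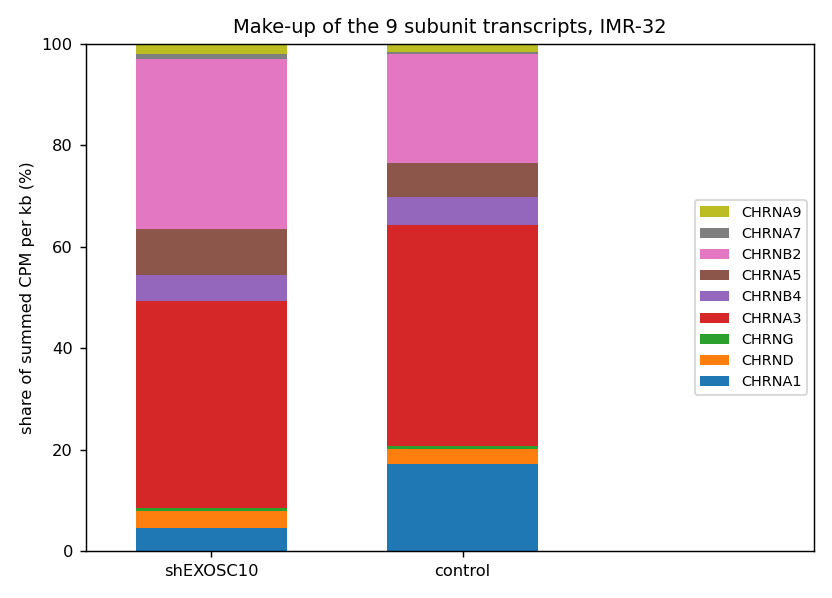
Mean share (%) of each of the 9 genes in their summed CPM per kb, for shEXOSC10 and control IMR-32 libraries (3 each). The CHRNA1 block is 4.48% in shEXOSC10 and 17.2% in controls, and the CHRNB2 block is 33.4% in shEXOSC10 and 21.4% in controls.

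Genes with a pattern across the 6 IMR-32 libraries most like that of CHRNA1, by root mean square distance of centred log2 CPM, were DLK1 (0.122), INHBE (0.195), SLC7A11 (0.201), DDIT4 (0.220) and NHLH1 (0.229). Their log2 fold changes were -2.42, -2.18, -2.19, -2.13 and -2.16. CHRNA1 was chosen for its fall in these same libraries, and the distance mostly follows the size of that fall. The likeness is therefore only a description. DLK1, a Notch-ligand-like membrane protein of neuroendocrine cells, had 25 CPM in shEXOSC10 libraries and 134 CPM in controls. SLC7A11, the cystine transporter, had 34.5 CPM after depletion and 158 CPM in controls. For CHRNA3 the closest genes were RPL29 (0.021), PRDM8 (0.024), HERPUD1 (0.025), H1-10 (0.026) and HMGCS1 (0.028), and for CHRNB4 they were CTH (0.053), TTC7B (0.059), ABCA3 (0.060), TLR9 (0.061) and SLC6A6 (0.066).

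Genes for receptor assembly and acetylcholine handling were called mainly in the upward direction, where 13.5% of all tested genes were called higher and 13.7% lower. Of 9 tested genes for receptor assembly, clustering and prototoxins, 5 rose and 1 fell, with a median log2 fold change of 0.34, against 0.00 over all tested genes. AGRN, the agrin that clusters receptors at the neuromuscular junction, had 183 ± 9.35 CPM in shEXOSC10 libraries and 109 ± 6.38 CPM in controls (edgeR log2 fold change 0.74, adjusted p = 3.7e-18). TMEM35A, a chaperone that neuronal receptors such as alpha7 need for assembly, had 60.8 ± 6.13 CPM after depletion and 34.8 ± 3.06 CPM in controls (0.80, adjusted p = 1.9e-12). UNC50 (0.38) and CRELD2 (0.34) rose too. DOK7 (0.76, adjusted p = 0.0469) lost its call without any 1 of the libraries other than shEXOSC10 replicate 1 (adjusted p = 0.0563 to 0.167). LYPD6, a prototoxin of the Ly6 family, fell by 0.87 (adjusted p = 0.00651), a call lost without control replicate 2 (0.0706) or shEXOSC10 replicate 2 (0.0506). RIC3, another chaperone of alpha7, had 54.8 CPM after depletion and 52.9 CPM in controls (adjusted p = 0.719).

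Of 12 tested genes for acetylcholine handling and muscarinic receptors, 7 rose and 0 fell, beside 13.5% of all tested genes called higher and 13.7% lower, with a median of 0.33. CHRM1, the M1 muscarinic receptor, had 5.83 ± 1.06 CPM in shEXOSC10 libraries and 1.22 ± 0.371 CPM in controls (log2 fold change 2.24, SE 0.29, edgeR adjusted p = 1.4e-09). The M2 receptor gene CHRM2 rose to 20.3 CPM after depletion, against 12.1 CPM in controls (0.75), and the M3 receptor gene CHRM3 to 9.14 CPM, against 5.08 CPM in controls (0.85). ACHE, the enzyme that breaks acetylcholine down, rose to 19.4 CPM after depletion, against 10.9 CPM in controls (0.83). SLC18A3, the vesicular acetylcholine transporter, had 40.8 CPM after depletion and 32 CPM in controls (0.35, adjusted p = 0.00317), and lost its call without shEXOSC10 replicate 1 (0.092). PRIMA1, the membrane anchor of acetylcholinesterase, lost its call (0.48, adjusted p = 0.0169) without control replicate 3 (0.0967) or shEXOSC10 replicate 3 (0.146).

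Of 18 tested transcription factors known at nicotinic subunit promoters, 0 rose and 9 fell, beside 13.5% of all tested genes called higher and 13.7% lower, with a median of -0.34. GATA3 had 211 ± 2.48 CPM in shEXOSC10 libraries and 397 ± 3.47 CPM in controls (log2 fold change -0.91, edgeR adjusted p = 2.5e-27). PHOX2A, a homeodomain factor of autonomic neurons, had 199 ± 8.12 CPM after depletion and 370 ± 23.2 CPM in controls (-0.89). HAND2 (-0.68) and TCF4 (-0.47) fell also. GATA3, PHOX2A and HAND2 are also in the adrenergic marker list, in which 7 of 8 fell and TH, at 2.69 CPM after depletion and 0.822 CPM in controls, rose. The mesenchymal list summed to 833 to 867 CPM after depletion and 687 to 730 CPM in controls, with 2 of 7 tested genes higher and 2 lower. The part of these changes in the levels of the subunit genes was not tested.

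In the rest of the Cys-loop receptor family, to which nicotinic subunits belong, calls went both ways. Of 15 tested genes of its GABA, glycine, serotonin and zinc-activated branches, 2 rose and 2 fell, where 27.1% of all tested genes were called, and the median was 0.21. GABRA3 rose by 0.41, GABRA5 fell by 0.40 on the log2 scale, and GABRG1 fell at a level under 1 CPM (-1.99, edgeR adjusted p = 0.0166). That call was lost without control replicate 1 (0.0693) or without shEXOSC10 replicate 1 (0.114) or 3 (0.0663). Of the 5 other nicotinic genes, CHRNA4 and CHRNA10 rose and 0 fell, and CHRNB1, the beta subunit of the muscle receptor, had 8.45 CPM after depletion and 9.98 CPM in controls (-0.24, adjusted p = 0.3). No test compared these lists with the 9 subunits.

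Schwann cell markers summed to 20.3 to 22.7 CPM in shEXOSC10 libraries and 15 to 22.2 CPM in controls, with SOX10 at 0 counts in both. Leukocyte, epithelial and endothelial markers each summed to at most 1.37 CPM in any IMR-32 library.

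SHEP held almost none of the receptor. CHRNA1, CHRNA9, CHRNB4 and CHRND had 0 counts in all 9 SHEP libraries, where 3 counts correspond to 0.186 to 0.264 CPM. That limit covers counting error only. CHRNA3 had 2 counts in MYCN 3A replicate 1 and 2 in no MYCN replicate 1, and CHRNA7 had 2 in MYCN 3A replicate 3. CHRNB2 had 2 counts in wild type MYCN replicate 1 and 2 in no MYCN replicate 1, and CHRNG had 2 in wild type replicate 3. Both ends of a fragment are counted, so 2 counts can be 1 fragment. Expression of these 8 genes was not detectable at this depth beyond single fragments, with either MYCN form or with neither.

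**Figure D4:**
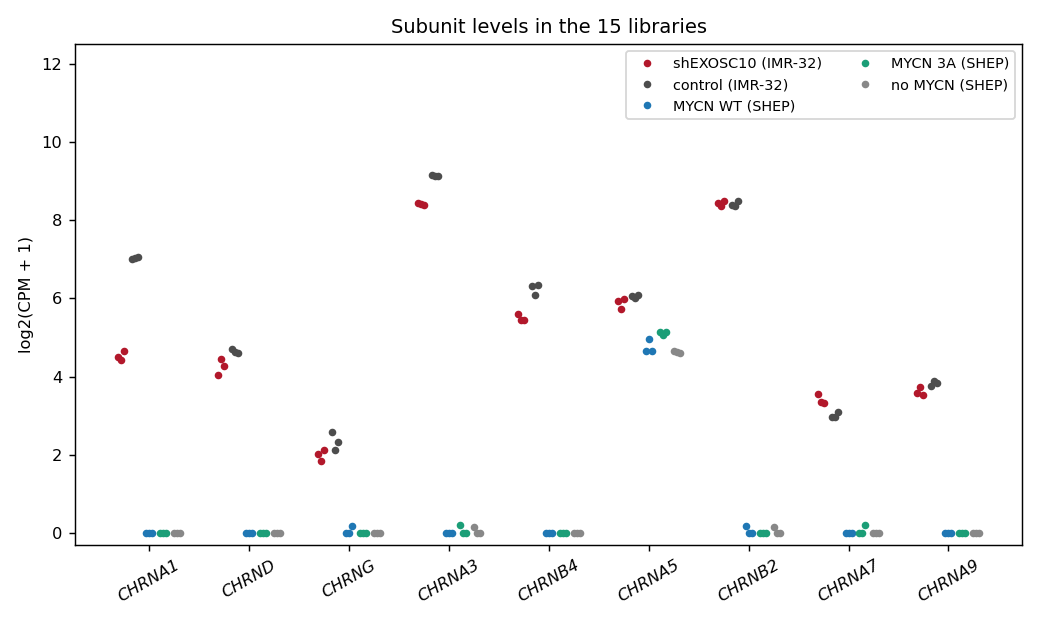
Log2(CPM + 1) of the 9 subunit genes in all 15 libraries, by group. In SHEP CHRNA5 stands well above the baseline and the other 8 genes hold at most 2 counts in a library, and the 2 cell lines come from separate tables.

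CHRNA5 was the one gene of the 9 with enough counts for a test in SHEP. It had 24.2, 30.1 and 24.4 CPM with wild type MYCN (mean 26.2 ± 3.36, SD, n = 3), 34.1, 32.3 and 34.5 CPM with MYCN 3A (33.6 ± 1.12) and 24.2, 23.8 and 23.3 CPM with no MYCN (23.8 ± 0.455). The MYCN 3A libraries lay above all others, while wild type replicates 1 and 3 sat near the libraries without MYCN. Per kilobase these means were 7.24, 9.28 and 6.57 CPM, below the 16 ± 1.5 and 18.1 ± 0.393 of the shEXOSC10 and control groups of IMR-32, which were set side by side without a test.

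With MYCN 3A, CHRNA5 was higher than with no MYCN (log2 fold change 0.50, edgeR SE 0.12, adjusted p = 0.00458), in a comparison in which 12.7% of the 14923 tested genes were called higher and 25.5% in all. The groups did not overlap, as for 41.3% of all tested genes. The call held under each of the 12 alternative settings (adjusted p = 0.000528 to 0.0218). With library totals in place of TMM scaling the value was 0.40, and the median of all tested genes was -0.138 rather than -0.038. That scaling also changed the split of calls, with 29.6% of called genes higher instead of 49.7%.

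With wild type MYCN, CHRNA5 did not pass the test against no MYCN (log2 fold change 0.14, SE 0.12, 95% interval -0.10 to 0.38, edgeR adjusted p = 0.46). The groups overlapped, whereas those of 37.5% of all tested genes did not. In this comparison 22.2% of tested genes were called, and 49.3% of the called genes were higher, or 35.1% with library totals. The 3A and wild type comparisons share the no MYCN libraries. Without wild type replicate 2, the highest of its group, the value was 0.05 (adjusted p = 0.846).

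Set directly against MYCN 3A, wild type MYCN gave lower CHRNA5 (log2 fold change -0.36, SE 0.12, edgeR adjusted p = 0.0275). In that comparison 14.5% of tested genes were called lower, 30.3% were called in all, and 40.4% had groups that did not overlap. The call was lost without wild type replicate 1 (0.0984) or 3 (0.0833), without 3A replicate 1 (0.0584) or 3 (0.0722), without the filter on low counts (0.0546) and with the no MYCN libraries left out of the fit (0.0503).

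**Figure D5:**
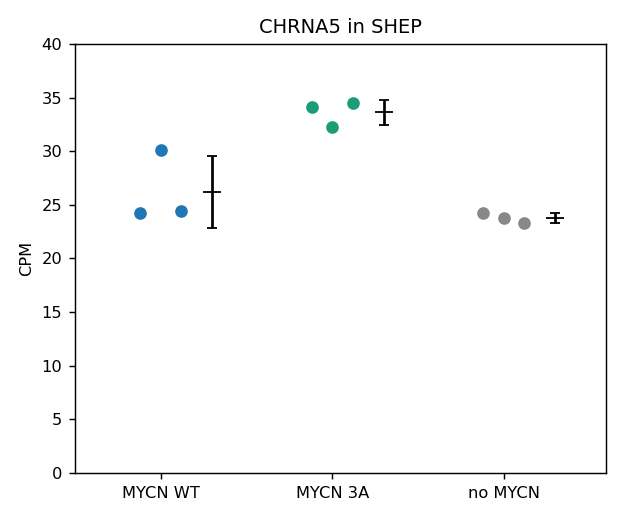
CHRNA5 CPM in each SHEP library (points) with the mean and SD of 3 libraries (bars). The MYCN 3A libraries sit between 32.3 and 34.5 CPM, the wild type MYCN libraries between 24.2 and 30.1 CPM and the no MYCN libraries between 23.3 and 24.2 CPM.

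PSMA4, the neighbour of CHRNA5 on the same strand, had 259 CPM with wild type MYCN, 326 CPM with MYCN 3A and 268 CPM with no MYCN. It too was higher with 3A than with no MYCN (log2 fold change 0.28, edgeR adjusted p = 0.0247). PSMA4 was also lower with wild type MYCN than with 3A (-0.33, adjusted p = 0.00815). Across the 9 SHEP libraries the patterns closest to CHRNA5 were those of EXOSC9 (0.075), an exosome core subunit gene, VPS72 (0.076), ZC3H15 (0.079), TFB2M (0.080) and APTX (0.083), by root mean square distance of centred log2 CPM. EXOSC9 had 124 CPM with wild type MYCN, 148 CPM with MYCN 3A and 109 CPM with no MYCN. EXOSC10 had 93.2 ± 11.6 CPM with wild type MYCN, 61.5 ± 4.02 CPM with MYCN 3A and 81.1 ± 10.5 CPM with no MYCN. Mesenchymal markers summed to 7080 to 7220 CPM with wild type MYCN, 5951 to 6288 CPM with 3A and 6886 to 7293 CPM with no MYCN. VIM made up most of these sums, at 5329, 4372 and 4150 CPM. Of the 8 markers, 3 rose and 2 fell with wild type MYCN, where 22.2% of all tested genes were called. With 3A 0 rose and 5 fell, where 25.5% were called. Between the forms 6 were higher and 1 lower with wild type, where 30.3% were called. The part of these markers in the CHRNA5 levels was not tested.

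Other receptor genes detected in SHEP were few. CHRNB1, the muscle beta subunit, had 3.37 ± 0.566 CPM with wild type MYCN, 5.34 ± 1.09 CPM with MYCN 3A and 7.92 ± 0.787 CPM with no MYCN (SD, n = 3 each). It fell with wild type MYCN against no MYCN (log2 fold change -1.23, SE 0.23, edgeR adjusted p = 0.000361), a call kept in each alternative. With 3A against no MYCN it was not called (-0.57, adjusted p = 0.0603). Between the forms its call (-0.66, adjusted p = 0.0359) was lost in 6 of the alternatives, among them wild type replicate 1 (0.149) or 2 (0.0534) or 3A replicate 1 (0.127) or 2 (0.107) left out. CHRNA10 had 1.69 CPM with wild type MYCN, 0.612 CPM with MYCN 3A and 1.51 CPM with no MYCN. Against no MYCN it was not called with either form. Between the forms it was higher with wild type (log2 fold change 1.49, edgeR adjusted p = 0.0435). That call was lost in 4 of the 12 alternatives.

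The lists had fewer tested genes in SHEP, where 22.2% of all tested genes were called with wild type MYCN, 25.5% with 3A and 30.3% between the forms. Of 8 tested assembly, clustering and prototoxin genes, 1 rose and 2 fell with wild type MYCN, 1 rose and 1 fell with 3A, and 3 were higher and 3 lower with wild type than with 3A. CRELD2, a chaperone-like gene of the secretory pathway, had 52.8 ± 3.19 CPM with wild type MYCN, 78.8 ± 8.08 CPM with MYCN 3A and 71.9 ± 8.59 CPM with no MYCN, and was lower with wild type than with 3A (log2 fold change -0.58, edgeR adjusted p = 0.000273). Of 4 tested acetylcholine and muscarinic genes, 1 rose and 1 fell with wild type MYCN, 0 rose and 1 fell with 3A, and 1 was higher and 0 lower between the forms. Of 13 tested transcription factors, 2 rose and 3 fell with wild type MYCN, 0 rose and 4 fell with 3A, and 5 were higher and 2 lower with wild type than with 3A. ID2, an inhibitor of basic helix-loop-helix factors, fell by 1.08 on the log2 scale with wild type MYCN (adjusted p = 6.3e-05). SP1, a factor that binds GC boxes, fell by 0.48 with 3A (adjusted p = 0.0037). Of 3 tested Cys-loop genes, GABRE fell with wild type MYCN.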

How the data were processed

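Polyadenylated RNA of 15 libraries was analysed, and the other 74 of the 89 samples of the series were not analysed here. Per the submitters' processing notes, reads were handled with STAR 2.7.10a and featureCounts 2.0.3 on hg19. The authors deposited raw counts per gene with no normalization. Per the file headers, the SHEP table was counted by strand, and a read over several genes counted for all of them. No settings are given for IMR-32. Genes opposite to highly expressed exons had 0.724% of the facing density in IMR-32 and 0.129% in SHEP, over 13 and 23 pairs. Even values made up 65.5 to 77.1% of counts from 1 to 10, so both read ends were counted and counts are not independent molecules.

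Each IMR-32 column was matched to a sample by the treatment and replicate number in its name. Samples of another assay carry similar labels, so the join rests on the names and the lower EXOSC10. Symbols came from a gene name table, which matched 51996 of 57905 gene IDs.

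Models were fitted in R 4.3.3 with edgeR 4.0.16, with DESeq2 1.42.0 as an alternative (limma 3.58.1 loaded). Low genes were removed with filterByExpr, and TMM factors scaled the libraries. The robust quasi-likelihood F test was run on all tested genes of a table with Benjamini-Hochberg adjustment at 0.05, with the 3 SHEP groups in a single fit. SE is the log2 fold change divided by the square root of F, and the 95% interval is 1.96 SE to each side. The test was tried on simulated counts first. Alternatives were DESeq2 size factors, library totals, no filter, a replicate block, the DESeq2 Wald test, pairwise fits and each library left out. The same replicate number gave residual correlations of -0.03 to 0.14, and different numbers gave -0.13 to 0.06. The ranges overlapped and no label names a shared batch, so no pairing was used.

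Named are all 9 subunits, EXOSC10 and MYCN, up to 6 called genes of each list by p, the nearest annotated genes and the 5 most like genes. A few list genes that this rule would name are not reported here. The subunits, lists and rules were chosen with earlier results of these data known.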

Additional observations from a re-analysis of the deposited data

Results flagged for a closer look

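CHRNA5 in SHEP differed between the MYCN forms when they were tested directly against each other. With wild type MYCN it had 26.2 ± 3.36 CPM and with MYCN 3A 33.6 ± 1.12 CPM (SD, n = 3 each), a log2 fold change of -0.36 (edgeR quasi-likelihood test, adjusted p = 0.0275). All 3 libraries of wild type MYCN lay below all 3 of 3A. The adjusted p ranged from 0.0142 to 0.0984 over the alternatives, and 30.3% of all tested genes were called in the same comparison.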

How the results depend on the processing

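CHRNA3 and CHRNB4 kept their direction and their calls on EXOSC10 depletion under all 11 alternatives. CHRNA1 kept its direction too, but it was chosen for its fall in these same libraries, so this is only a description. CHRNB2, never called, was 0 without control replicate 1 and -0.01 without control replicate 2 or shEXOSC10 replicate 3, in a range of -0.01 to 0.06 over the libraries left out. With single libraries left out, the number of called genes was 3810 to 4386 for EXOSC10 depletion, 2313 to 3458 for wild type MYCN, 2166 to 3616 for MYCN 3A and 3261 to 4901 between the forms. For 3A it was 3806 with all libraries, 2166 without no MYCN replicate 1 and 2508 without no MYCN replicate 2. The summed level of the 9 genes with no MYCN was 6.84 CPM per kb with library totals, against 6.58 with TMM scaling, a shift that follows from the TMM factors of these libraries (1.03 to 1.05).

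Residual correlations were -0.03 to 0.14 for libraries with the same replicate number and -0.13 to 0.06 for different numbers. Whether libraries of the same number share an origin was not tested. These ranges overlapped and no label names a shared batch, so the main fit left out the replicate numbers. With them as a replicate block, 5251 genes were called for EXOSC10 depletion instead of 4639, 4184 for wild type MYCN instead of 3315, 4794 for 3A instead of 3806 and 5414 between the forms instead of 4527. CHRNA5 passed the test on EXOSC10 depletion in that fit (adjusted p = 0.034). With 3 libraries a group and about 3 CPM, CHRNG had an interval wide enough to hold both no change and the change of CHRNB4. Of the 9 genes, those other than CHRNA5 had too few counts for a test in SHEP.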
